A study of Mus musculus with 4 samples.

Results

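Integrin subunit genes of dermal endothelium were examined in single sorted cells of the mouse ear. The 9 genes are *Itga1*, *Itga3*, *Itga5*, *Itga6*, *Itga9*, *Itgav*, *Itgb1*, *Itgb3* and *Itgb4*, a list given by name and not chosen by a threshold, out of 46517 genes counted and 27 integrin subunit genes listed. Live CD31+/CD45-/Lyve1- cells from the ear dermis of wild-type adult female C57Bl/6 mice (the J substrain in the methods of the study), with no treatment and no altered allele, were sorted into 4 384-well plates, with plates A and B in each of replicates 1 and 2. A replicate is described as a pool of cells from 6 mice, so its values are means over animals that cannot be told apart, and whether the pools held different mice is not stated. The sample labels give an age of 12 to 26 weeks and the methods of the study give a younger range. The libraries were made by Smart-seq2, in which each well receives a single cell and full-length cDNA is read without molecular identifiers.

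Integrins are cell surface receptors made of 1 alpha and 1 beta subunit, which bind matrix proteins outside the cell and connect them to the actin cytoskeleton inside it. The beta subunit beta1, the product of *Itgb1*, pairs with alpha1 to bind collagen and laminin, with alpha3 and alpha6 to bind laminin, with alpha5 to bind fibronectin, and with alpha9 to bind tenascin-C, EMILIN1 and cellular fibronectin. The beta4 subunit pairs with alpha6 alone, in a laminin receptor best known from the hemidesmosomes of keratinocytes, and alphav pairs with beta3, beta1 and other beta subunits to bind vitronectin and other ligands with an RGD motif. In endothelium these receptors hold cells on the basement membrane, fibronectin receptors are known from growing vessels, and alpha9 is known for its part in the valves of lymphatic vessels.

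On mm10 the genes lie on 6 chromosomes. *Itga6* (2: 71745616 to 71858416) and *Itgav* (2: 83724397 to 83806916) are on the plus strand of chromosome 2. *Itga3* (11: 95044474 to 95076801, minus strand), *Itgb3* (11: 104608000 to 104670476) and *Itgb4* (11: 115974709 to 116008412) are on chromosome 11. *Itgb1* lies at 8: 128685654 to 128733200, *Itga9* at 9: 118606690 to 118901003, *Itga1* at 13: 114953096 to 115101964 on the minus strand and *Itga5* at 15: 103344286 to 103366763 on the minus strand. Reads were counted without a stated strand setting from a kit that does not mark strand, so strand cannot separate reads where exons of overlapping genes coincide. The overlaps below are of whole gene spans, and exons were not compared. *Pelo* lies within *Itga1* on the same strand and held 4857 reads over all wells against 27500 for *Itga1*. The long noncoding RNA *B230344G16Rik*, antisense to *Itgb4*, held 3752 against 35755, and the transcripts antisense to *Itgav* and *Itga9*, *Gm13684* and *Gm2415*, held 313 and 91.

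The promoters of 3 genes are shown because, of the subunits with an entry at their annotated start, these had the lowest unadjusted p in the comparison of lymphatic with blood vascular wells described further on, *Itgav* with higher and *Itga1* and *Itga5* with lower levels in lymphatic wells. Each runs from 250 bases before to 50 bases after the start annotated by RefSeq on GRCm38.p6, 5′ to 3′ on the strand of the gene: *Itgav* chr2:83724147-83724446 (plus strand), *Itga1* chr13:115101915-115102214 (minus strand) and *Itga5* chr15:103366742-103367041 (minus strand). Capitals mark matches on either strand to GGGCGG, the core of sites for Sp and Krüppel-like factors, and to CGGAAG, a core of ETS sites. No match to TGANTCA, the AP-1 motif, was in these 3 windows.
*Itgav*: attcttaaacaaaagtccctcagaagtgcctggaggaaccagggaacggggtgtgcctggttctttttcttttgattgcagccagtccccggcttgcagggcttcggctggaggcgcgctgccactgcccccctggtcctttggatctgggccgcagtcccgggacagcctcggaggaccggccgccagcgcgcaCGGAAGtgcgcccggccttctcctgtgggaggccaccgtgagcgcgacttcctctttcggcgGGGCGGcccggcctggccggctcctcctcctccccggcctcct
*Itga1*: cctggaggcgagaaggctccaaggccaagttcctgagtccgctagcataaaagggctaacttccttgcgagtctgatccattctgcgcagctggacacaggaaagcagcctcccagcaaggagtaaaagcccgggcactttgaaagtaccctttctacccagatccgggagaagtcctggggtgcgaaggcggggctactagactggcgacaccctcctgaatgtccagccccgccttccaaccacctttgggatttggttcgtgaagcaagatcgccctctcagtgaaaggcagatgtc
*Itga5*: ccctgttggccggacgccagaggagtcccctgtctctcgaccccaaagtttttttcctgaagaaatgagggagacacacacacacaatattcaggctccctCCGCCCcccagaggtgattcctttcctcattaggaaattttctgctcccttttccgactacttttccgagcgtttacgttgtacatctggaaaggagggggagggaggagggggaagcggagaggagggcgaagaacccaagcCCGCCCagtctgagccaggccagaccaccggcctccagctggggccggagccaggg

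The *Itgav* promoter held 1 match each to the Sp and the ETS motif at a GC content of 67.3%, the *Itga5* promoter held 2 matches to the Sp motif at 58.7%, and the *Itga1* promoter held none of the 3 motifs at 56.7%. Of 32851 promoters of the same length, 35.7% held the Sp motif, 16.9% the ETS motif and 7.81% the AP-1 motif, and no match in the promoters of these genes overlapped another. Promoters were listed for 6 of the 9 genes. The first entry of *Itga3* held 3 matches to the Sp and 1 to the ETS motif, that of *Itgb1* held 1 match to the Sp motif, and the only entry of *Itga9* starts 105002 bases inside the gene as annotated by GENCODE. *Itga6*, *Itgb3* and *Itgb4* had no entry.

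Wells were assigned to classes without use of any integrin. Wells entered with 600 counts or more, between 500 and 8000 detected genes, and reads of 2 or all of the endothelial genes *Pecam1*, *Cdh5* and *Kdr*. Blood vascular endothelial cells (BECs) were those in which none of *Lyve1*, *Prox1*, *Ptprc*, *Kcnj8* and *Pdgfrb* reached 100 CPM (the count of a gene scaled to an equal total in every well), which left 338 wells of replicate 1 and 363 of replicate 2. The study names these genes and gives no level for them. Wells with at least 100 CPM of *Prox1*, the lymphatic regulator, were called lymphatic (12 and 67 wells in replicates 1 and 2), and wells with that level of *Pdgfrb* or *Kcnj8*, genes of pericytes and smooth muscle, were called mural-mixed (407 and 53). BECs were clustered and named from artery, capillary and vein markers as artery-like (27 and 37 wells), capillary-like (126 and 39) and vein-like (116 and 117), while 69 and 170 BEC wells stayed unnamed.

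Replicates differed in depth and in their mix of wells. Total counts per plate ran from 31864976 to 74739095, the median well held 142086 or 182926 reads on a plate of replicate 1 and 40324 or 42540 on a plate of replicate 2, and no well was shared between plates. After each well had been thinned to 20000 reads, the median number of genes with a read was still 2439 in BEC wells of replicate 1 against 1758 in replicate 2. In replicate 2, 174 wells had a read of fewer than 2 of the 3 endothelial genes, against 0 in replicate 1. A difference between replicates therefore carries these differences as well. The blocked tests below remove a shared shift between replicates, so a p-value sets class differences against their variation between only 2 replicates.

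Markers not used in the gates fitted the names in part. The 7 lymphatic markers outside the gate (such as *Mmrn1*, *Flt4* and *Reln*) summed to 5123 and 9942 CPM in lymphatic wells and to 63.1 to 403 CPM in the artery-, capillary- and vein-like wells. *Lyve1* itself was at 677 and 2381 CPM in lymphatic wells, although the sort was for Lyve1- cells. In unnamed BEC wells of replicate 2, *Mmrn1* was at 1201 CPM, so the BEC gate did not remove every well with a lymphatic transcript. The 10 mural markers outside the gate summed to 6718 and 6933 CPM in mural-mixed wells, but also to 1404 and 398 CPM in artery-like, 1501 and 470 in capillary-like, 897 and 483 in vein-like and 220 and 73.4 in lymphatic wells. *Pecam1* stood at 2023 and 635 CPM in mural-mixed wells, so these hold transcripts of endothelium and mural cells together, and a level there cannot be given to either cell type. The vein-like class joins a cluster led by *Sele*, *Rgs16* and *Rcan1* (101 and 61 wells) and a cluster with 6 vein markers of which none led it (15 and 56 wells).

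Over all BEC wells, *Itgb1* had the highest level per length of the 9 genes. This set includes the unnamed wells, 170 of 363 in replicate 2, where the fibroblast markers summed to 1371 CPM. In these, *Itgb1* was at 137 CPM, against 387 to 470 in the named blood vascular classes of that replicate. *Itgb4* was at 364 CPM there, against 79.8 to 333. Mean CPM per well per kilobase of annotated exon was 154 in replicate 1 and 74.4 in replicate 2 for *Itgb1*, 47.4 and 44.6 for *Itga5*, 36.9 and 26.8 for *Itga6*, and 17.6 and 44.7 for *Itgb4*. The remaining subunits were below 10 per kilobase in both replicates. *Itga3* was at 5.27 and 7.34, *Itga1* at 5.69 and 3.14, and *Itga9* at 3.49 and 4.01. The alphav and beta3 subunits were the lowest, with 1.12 and 1.53 for *Itgb3* and 0.615 and 0.766 for *Itgav*. Neighbours in this order whose replicates overlapped were *Itga6* and *Itgb4*, *Itga3* and *Itga1*, and *Itga1* and *Itga9*. When the longest coding transcript was taken as the length, an alternative added after the data had been seen, *Itga6* (66.7 ± 14.9, mean ± SD, n = 2) moved above *Itga5* (51.8 ± 2.26) and *Itga1* (7.5 ± 3.06) above *Itga3* (7.41 ± 1.72), and the other ranks stayed.

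**Figure D1:**
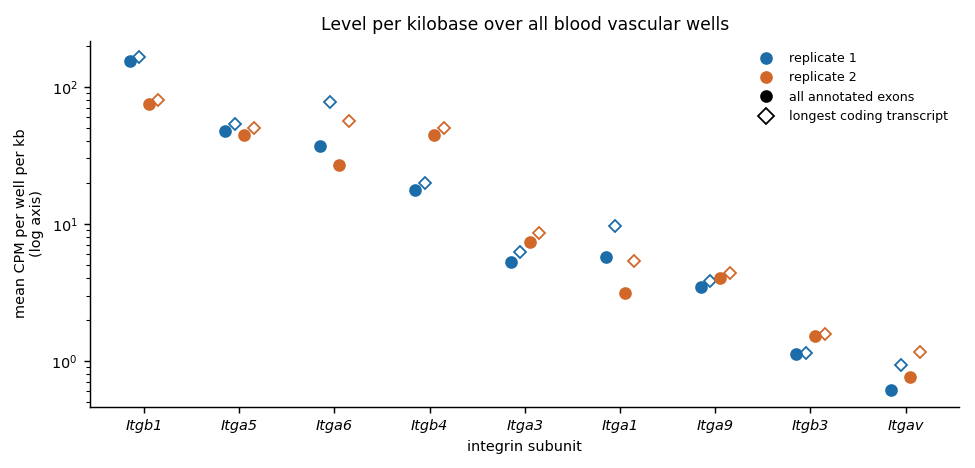
Mean CPM per well per kilobase (log axis) of the 9 integrin subunits over all BEC wells, 1 point per replicate, with the length of all annotated exons (circles) or of the longest coding transcript (diamonds). *Itgb1* is at the top in both replicates at 154 and 74.4, and *Itgav* at the bottom at 0.615 and 0.766.

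A BEC well at 20000 reads held a read of a median of 3 of the 9 subunits in replicate 1 and 2 in replicate 2. No read of any was found in 4 of 337 and 30 of 294 such wells. Wells with fewer reads were left out of every share at this depth, among them 16 of the 39 capillary-like, 21 of the 53 mural-mixed and 6 of the 67 lymphatic wells of replicate 2. The unthinned shares of BEC wells with a read ran from 97.0% and 59.8% for *Itgb1* through 90.8% and 53.7% for *Itga6* to 6.21% and 5.51% for *Itgb3*. Thinning brought *Itgb1* to 85.5% and 52.7%, *Itga6* to 67.4% and 47.3%, and *Itgb3* to 3.86% and 3.40%. *Itgb1* and *Itga6* thus had a read in more wells of replicate 1 than of replicate 2 at equal reads per well, whereas *Itgb4*, at 36.2% and 40.5%, did not. All intervals on shares (95%, exact Clopper-Pearson) cover counting error only, since the reads carry no molecular identifiers.

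The beta1 subunit was spread over all classes. Mean *Itgb1* was 779 and 456 CPM in artery-like, 726 and 387 in capillary-like, 492 and 470 in vein-like, 554 and 472 in lymphatic and 865 and 248 in mural-mixed wells of replicates 1 and 2. No 2 neighbours in the order of the class means were separated by their replicates. Its thinned share lay between 81.0% and 94.2% in the 5 classes of replicate 1 and between 55.7% and 62.5% in those of replicate 2, 2 ranges that do not overlap.

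The beta4 subunit was lowest in capillary-like and mural-mixed wells. Mean *Itgb4* was 123 and 268 CPM in artery-like, 57.5 and 79.8 in capillary-like, 212 and 333 in vein-like, 352 and 258 in lymphatic and 84.9 and 32.3 in mural-mixed wells. Capillary-like wells of both replicates lay below all 4 artery- and vein-like values. The share of wells with a read at 20000 reads was 21.4% (95% interval 14.6 to 29.6) and 17.4% (4.95 to 38.8) in capillary-like wells against 56.9% (47.4 to 66.1) and 35.7% (26.9 to 45.1) in vein-like wells, intervals that were separate in replicate 1 and overlapped in replicate 2. The value of 17.4% rests on 23 wells, and at 10000 reads, which kept 32, it was 28.1% against 34.8% in vein-like wells of that replicate. In artery-like wells it was 37.0% (19.4 to 57.6) and 45.7% (28.8 to 63.4), and these intervals overlapped those of capillary-like wells in both replicates. In relation to *Itgb1*, per kilobase, *Itgb4* stood at 0.369 and 0.318 in lymphatic, 0.251 and 0.411 in vein-like, 0.0915 and 0.342 in artery-like and 0.0461 and 0.120 in capillary-like wells. The 7 keratinocyte markers summed to 11.3 and 19.2 CPM in capillary-like, 16.9 and 0.50 in vein-like, 73.9 and 0 in artery-like and 17.6 and 2.57 in lymphatic wells, and all 7 were at 0 in artery-like wells of replicate 2. In unnamed BEC wells they summed to 437 and 156 CPM, with *Itgb4* at 96.5 and 364 CPM. Without wells that held at least 100 CPM of these markers, the log2 fold change of *Itgb4* in capillary-like wells against artery- and vein-like wells was -1.87, against -1.97 with them, and their part in its level in each class was not tested.

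The beta3 subunit was seen in few wells of every class. *Itgb3* had no read in the 27 artery-like wells of replicate 1, and none in the 39 capillary-like wells of replicate 2, counts of 0 that allow 11.1% and 7.69% by the limit of 3 wells, with exact 95% intervals that end at 12.8% and 9.03%. It was at 39.5 CPM in artery-like wells of replicate 2, 4.84 in capillary-like wells of replicate 1, 8.68 and 9.35 in vein-like, 77.2 and 31.0 in lymphatic and 4.22 and 15.7 in mural-mixed wells. A single well gave 93.8% and 71.7% of the lymphatic level and 84.3% of the artery-like level. Both lymphatic values lay above all capillary- and vein-like values and on either side of the artery-like value of replicate 2. Without the highest well of each replicate the lymphatic values were 5.22 and 8.92 CPM, which are not above both vein-like values. *Itgb3* is also a platelet gene. The 4 platelet markers were at 0 in artery-like wells of both replicates, summed to 18.3 and 1.71 CPM in lymphatic wells and reached 226 CPM in vein-like wells of replicate 2.

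Among the laminin-binding alpha subunits, *Itga6* was the more abundant. Its mean was 271 and 488 CPM in artery-like, 465 and 104 in capillary-like, 182 and 275 in vein-like, 88.7 and 158 in lymphatic and 201 and 651 in mural-mixed wells. Lymphatic wells of both replicates were below both vein-like values, and a single well gave 87.6% of the mural-mixed level of replicate 2. The capillary-like value of replicate 2 was below all artery- and vein-like values and that of replicate 1 between the artery-like ones, and the thinned shares there were 77.8% (69.5 to 84.7) and 43.5% (23.2 to 65.5). *Itga3* was at 23.1 and 84.8 CPM in artery-like, 26.2 and 12.3 in capillary-like, 25.9 and 49.1 in vein-like, 6.5 and 22.2 in lymphatic and 27.3 and 10.0 in mural-mixed wells. A single well gave 70.8% and 58.7% of its artery-like levels, 60.9% of the capillary-like level of replicate 2 and 61.3% and 89.4% of the lymphatic ones, and without that well the artery-like levels were 7.01 and 36.0 CPM and the lymphatic ones 2.75 and 2.40 CPM. Its replicates overlapped between all neighbours in the order of the classes, and its thinned share was at most 15.5% in any class and replicate.

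The collagen-binding subunit *Itga1* was at 106 and 224 CPM in artery-like, 174 and 57.0 in capillary-like, 54.9 and 56.1 in vein-like, 7.66 and 45.1 in lymphatic and 182 and 147 in mural-mixed wells. Vein-like wells were below artery- and capillary-like wells, and lymphatic wells below all 6 blood vascular values, without overlap. The capillary-like value of replicate 2 drew 45.1% from 1 well and is 32.1 CPM without it, which is below both vein-like values and the lymphatic value of replicate 2. One well gave 66.7% of the artery-like level of replicate 2 and 69.6% of the lymphatic level of replicate 2, whose plates stood at 79.2 and 11.9 CPM. At 20000 reads, 25.0% (5.49 to 57.2) and 13.1% (5.84 to 24.2) of lymphatic wells had a read, against 48.1% (28.7 to 68.1) and 31.4% (16.9 to 49.3) of artery-like wells, intervals that overlap. Capillary-like wells were at 49.2% and 26.1%. Vein-like wells were at 22.4% and 21.7%, below the lymphatic share in replicate 1 and above it in replicate 2. The sum of the mural markers was also lowest in lymphatic wells, at 220 and 73.4 CPM. Without blood vascular wells that held at least 1000 CPM of these markers, the log2 fold change of *Itga1* in lymphatic wells against the blood vascular classes was -2.14, against -2.42 with them, and that of artery-like against vein-like wells was 1.42, against 1.54. Wells below that limit stayed in, and the part of mural transcripts in the *Itga1* level of each class was not tested.

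The fibronectin-binding subunit *Itga5* was at 242 and 301 CPM in artery-like, 198 and 115 in capillary-like, 267 and 215 in vein-like, 76.5 and 52.4 in lymphatic and 171 and 39.1 in mural-mixed wells. Capillary-like wells were below artery- and vein-like wells, and lymphatic wells below all blood vascular values, in both replicates. The capillary-like value of replicate 2 drew 53.1% from 1 well and is 55.6 CPM without it, which is below the lymphatic value of replicate 1. Shares at 20000 reads were 25.0% (5.49 to 57.2) and 26.2% (15.8 to 39.1) in lymphatic wells, 60.3% (50.8 to 69.3) and 34.8% (26.1 to 44.2) in vein-like wells, 37.0% and 40.0% in artery-like wells, and 43.7% and 26.1% in capillary-like wells. The intervals of lymphatic and capillary-like wells overlapped in both replicates, and those of lymphatic and vein-like wells overlapped as well.

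The alpha9 subunit, *Itga9*, had its highest level in lymphatic wells, at 239 and 210 CPM. It was at 40.1 and 37.8 CPM in vein-like, 14.1 and 17.5 in mural-mixed, 13.6 and 77.6 in artery-like and 16.1 and 0.117 in capillary-like wells, so that both lymphatic values were above all others. A single well gave 93.1% and 94.6% of the artery-like levels, and 41.9% and 15.8% of the lymphatic ones. A read at 20000 reads was found in 33.3% (9.92 to 65.1) and 34.4% (22.7 to 47.7) of lymphatic wells. Vein-like wells followed with 13.8% (8.09 to 21.4) and 11.3% (6.16 to 18.6), and capillary-like wells were at 5.56% (2.26 to 11.1) and 0% (0 to 14.8).

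The alphav subunit, *Itgav*, was at 32.5 and 132 CPM in lymphatic, 34.4 and 41.9 in mural-mixed, 9.31 and 17.3 in vein-like, 5.26 and 15 in artery-like and 6.60 and 1.98 in capillary-like wells. Lymphatic and mural-mixed wells of both replicates were above all 6 blood vascular values and overlapped each other. In lymphatic wells of replicate 1 the level came from 2 of 12 wells, and 1 of them gave 92.5% of it. Without that well it was 2.65 CPM, below both vein-like values, both artery-like values and the capillary-like value of replicate 1. Thinned shares were 8.33% (0.211 to 38.5) and 19.7% (10.6 to 31.8) in lymphatic, 14.8% (11.5 to 18.7) and 12.5% (3.51 to 29.0) in mural-mixed and between 0% and 6.35% in artery-, capillary- and vein-like wells.

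**Figure D2:**
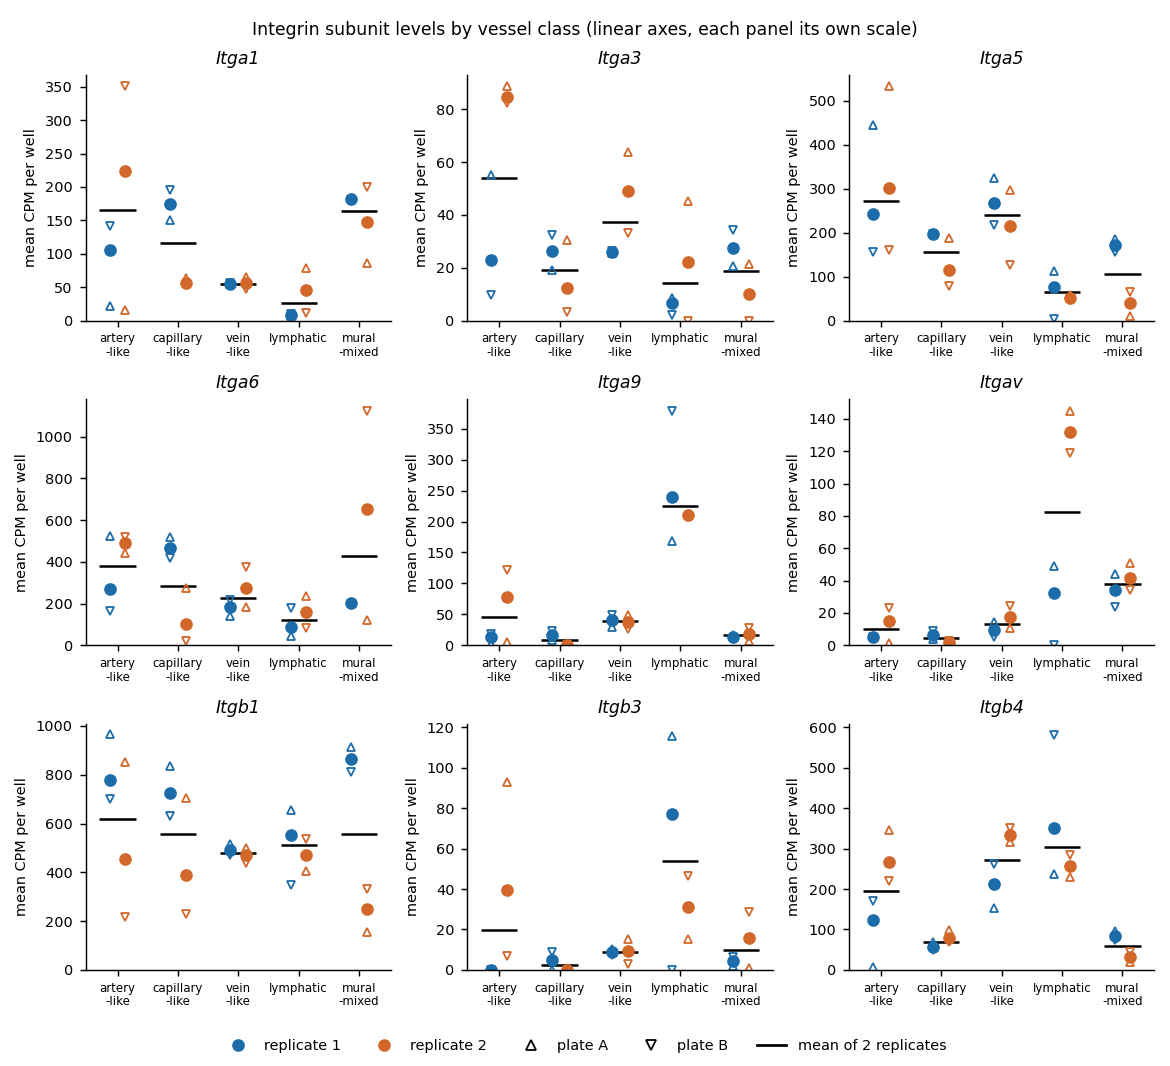
Mean CPM per well (linear axes, 1 panel per subunit with its own scale) by class, with filled circles for replicates 1 and 2, open triangles for their plates A and B and a bar for the mean of both replicates. *Itga9* is above 200 CPM in both replicates of lymphatic wells alone, *Itga5* is lowest there apart from mural-mixed wells of replicate 2, and the triangle of *Itga6* at 1124 CPM is plate B of mural-mixed wells of replicate 2.

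**Figure D3:**
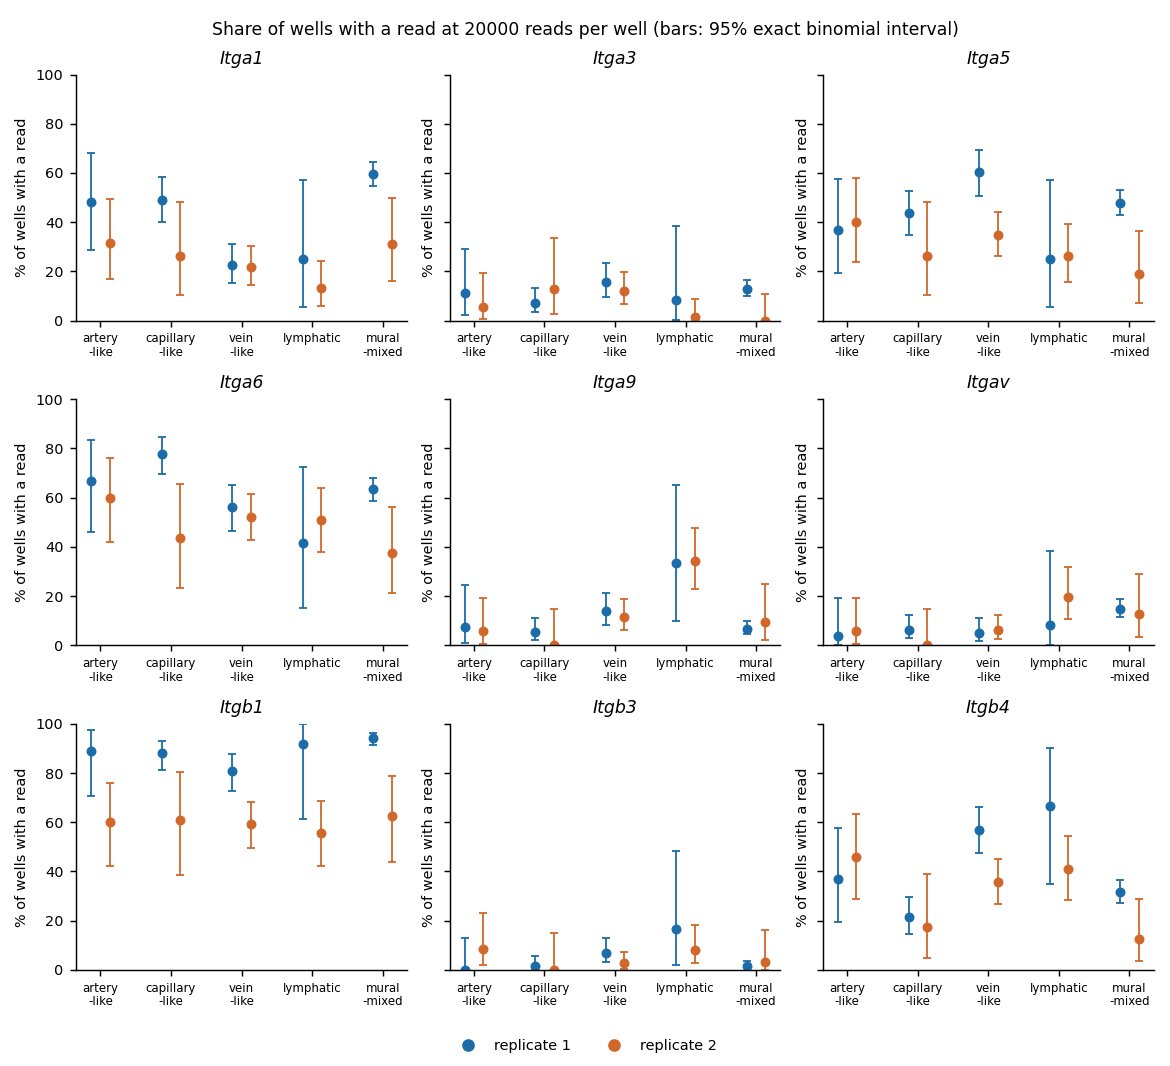
Share of wells with a read of each subunit after thinning to 20000 reads (0 to 100%), by class and replicate, with 95% exact binomial intervals. *Itgb1* lies above 80% in replicate 1 and near 60% in replicate 2 in each class, and *Itga9* is at 33.3% and 34.4% in lymphatic wells.

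Differences between classes were tested on counts summed per replicate and class, 10 sums in all, for the 17542 genes that reached 10 counts in 2 or more sums. The test was edgeR's quasi-likelihood test, blocked on replicate. All 9 subunits passed this filter. Sums weight wells by their reads and mean CPM per well weights wells equally, so the fold changes below can differ in size from the levels above. The common dispersion was 0.873, a spread at which only large differences pass the threshold of 0.05 on the Benjamini-Hochberg adjusted p.

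Between artery-like and vein-like wells only 1 of 17542 genes passed the threshold, so the count for the subunits says nothing particular about integrins. By edgeR, 0 of 9 passed the threshold on the adjusted p and 0 had an unadjusted p under 0.05, against 0.00570% and 5.87% of all genes tested. *Itga1* was higher in artery-like wells without overlap (10.4% of all genes were higher and 27.3% lower in this way), with a log2 fold change of 1.54 (SE 0.75, adjusted p = 0.832) and 1.22 and 1.97 in the replicates. It turned to -0.16 with the gates at 10 CPM and to -0.98 on plate A alone. Here and below, the alternative with gates at 10 CPM was also clustered at resolution 1.5, against 0.8 at 100 CPM, so its values carry both changes. The median log2 fold change of the 9 subunits was 0.34 and that of all genes -0.28. *Itgav* had the most negative value, -2.03 (SE 1.30, adjusted p = 0.886), with overlapping mean CPM per well, and turned to 0.10 with the gates at 10 CPM and to 1.06 with classes from marker scores.

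Capillary-like wells were compared with the mean of artery- and vein-like wells. None of the 9 subunits passed the threshold (0% of all genes did), and 1 had an unadjusted p under 0.05 (4.38% of all genes). This was *Itgb4*, the laminin receptor subunit, at a log2 fold change of -1.97 (SE 0.72, unadjusted p = 0.0206, adjusted p = 1.0) and -1.49 and -2.29 in the replicates. Its sign was negative in all 16 alternatives, with values from -2.96 to -0.60 and adjusted p from 0.346 to 1.0. *Itgb4* and *Itga5* were the subunits lower without overlap (3.49% of all genes were higher and 6.87% lower in this way), and the fold change of *Itga5* was -0.31 (SE 0.47). By DESeq2's Wald test and by limma on mean CPM per well, 0 of 9 passed in this comparison (0.599% and 0% of all genes) and in that of artery- with vein-like wells (1.90% and 0%).

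Lymphatic wells were compared with the mean of the 3 blood vascular classes. Here 0 of 9 subunits passed the threshold, against 2.48% of all genes, and 5 had an unadjusted p under 0.05, against 13.6%. The 2 with higher levels in lymphatic wells were *Itgav*, at a log2 fold change of 3.72 (SE 0.97, unadjusted p = 0.00288, adjusted p = 0.0862), and *Itga9*, at 3.05 (SE 0.95, unadjusted p = 0.00873, adjusted p = 0.161). Those with lower levels were *Itga1* at -2.42 (SE 0.72, adjusted p = 0.140), *Itga5* at -1.46 (SE 0.48, adjusted p = 0.184) and *Itga6* at -1.34 (SE 0.57, adjusted p = 0.322). Both replicates gave the same sign for each of these 5 genes, and *Itga5* turned to 0.11 with the gates at 10 CPM and the clustering resolution used with them. Of them, *Itga9* and *Itgav* were higher and *Itga1* and *Itga5* lower without overlap (7.08% and 7.11% of all genes). The fold changes of *Itgav* and *Itga9* rest in part on sums near 0. Capillary-like wells of replicate 2 held 3 reads of *Itgav* and 1 of *Itga9*. Artery-like sums held 19 and 20 reads of *Itgav*, and vein-like sums 374 and 556.

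The calls of the lymphatic comparison moved with the fit. *Itgav* passed in 4 of the 15 alternatives with a test: the Wald test, no replicate block, gates at 300 CPM and thinned wells. Without the block (3.73, SE 0.89, adjusted p = 0.0460), 469 of 17542 genes passed. At 300 CPM and in thinned wells the count of all genes was of similar size to the 435 of the fit above. Over the 15, adjusted p ran from 1.94e-04 to 0.254 and fold changes from 2.94 to 4.53. The replicates alone, with no test, gave 2.51 and 4.94. *Itga9* passed in 3 of 15, 1 of them the fit with gates at 10 CPM, which held 1 lymphatic sum and 1 artery- and capillary-like sum each and assumes that these vary like the others, with adjusted p from 0.00528 to 0.300 and fold changes from 2.87 to 4.77. DESeq2's Wald test called *Itga1*, *Itga9* and *Itgav* (9.92% of all genes), and limma called 0 of 9 (3.22%). *Itgb3* had a fold change of 3.46 (SE 1.64, adjusted p = 0.395), *Itgb4* one of 1.13 (SE 0.58, adjusted p = 0.448), *Itga3* one of -1.0 (SE 1.28) and *Itgb1* one of 0.18 (SE 0.31, adjusted p = 0.907). The alpha subunits therefore lay on both sides of 0 while the fold change of their common partner *Itgb1* was smaller than its error. The medians were 0.18 for the 9 subunits and -0.11 for all genes.

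Mural-mixed wells were compared with the same blood vascular mean. None of the 9 subunits passed the threshold (0.952% of all genes did). *Itgav* had an unadjusted p under 0.05 (8.88% of all genes), with a log2 fold change of 2.56 (SE 0.95, unadjusted p = 0.0210, adjusted p = 0.344) and 1.84 and 3.57 in the replicates. It was also the subunit higher without overlap, and no subunit was lower in this way (7.11% and 1.12% of all genes). *Itga1* had a fold change of 0.98 (SE 0.57, adjusted p = 0.806) and *Itgb4* one of -1.42 (SE 0.70, adjusted p = 0.657). DESeq2's Wald test called *Itgav* (adjusted p = 0.0415; 0.0415 to 0.964 over the 15 alternatives). The lymphatic and mural-mixed comparisons share the blood vascular sums. The medians were -0.61 for the subunits and 0.15 for all genes.

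**Figure D4:**
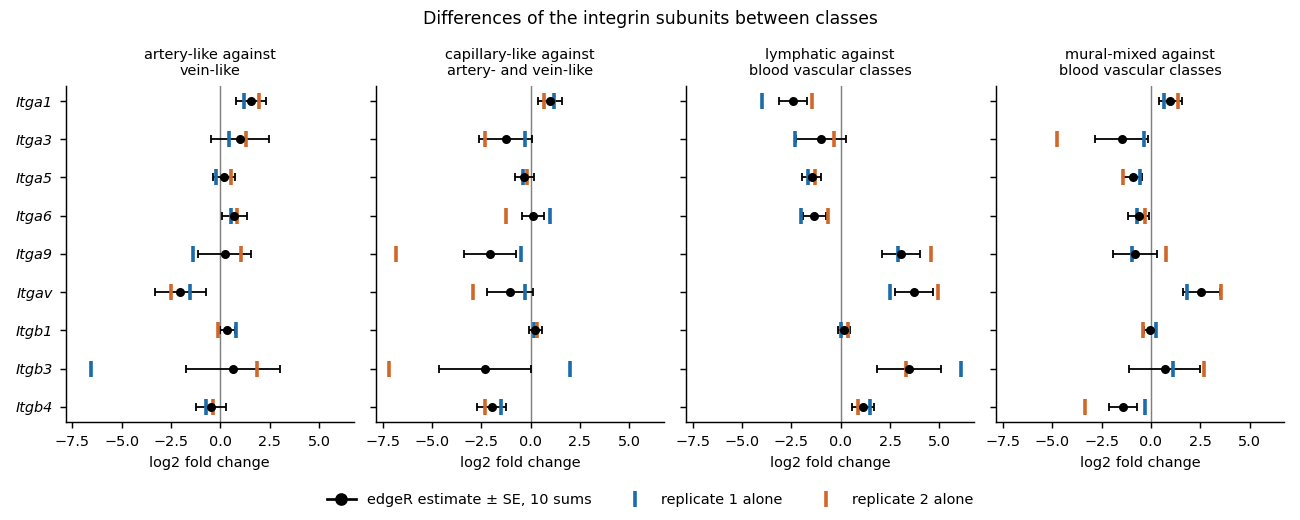
Log2 fold changes of the 9 subunits in the 4 comparisons, with the edgeR estimate ± SE over 10 sums (black) and each replicate alone (ticks). In the lymphatic panel *Itgav* and *Itga9* lie at 3.72 and 3.05 and *Itga1*, *Itga5* and *Itga6* below 0, and *Itgb1* lies within 1 SE of 0 in each of the 4 panels.

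Whether an alpha subunit and its beta partner were read in the same wells was described in BEC wells thinned to 20000 reads. *Itgb3* had a read in 15.8% of the 19 wells with *Itgav* and 3.14% of the others in replicate 1, and in 17.6% of 17 and 2.53% of the others in replicate 2, which rests on 3 wells with both genes in each replicate. For *Itga6* and *Itgb4* the shares were 36.1% and 36.4% in replicate 1 and 42.4% and 38.7% in replicate 2. These laminin receptor partners were thus found together about as often as the product of their shares gives (24.3% against 24.4%, and 20.1% against 19.1%).

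*Itgb1* had a read in 87.8% of wells with *Itga5* against 83.2% of the others in replicate 1, and in 67.4% against 46.0% in replicate 2. With *Itga1* it was 86.6% against 84.8% and 70.9% against 48.5%, and with *Itga6* 87.2% against 81.8% and 57.6% against 48.4%. With *Itga9* the direction differed between replicates, at 96.7% against 84.4% and 44.8% against 53.6%. The wells of a replicate share plates and a pool, so these shares are a description.

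**Figure D5:**
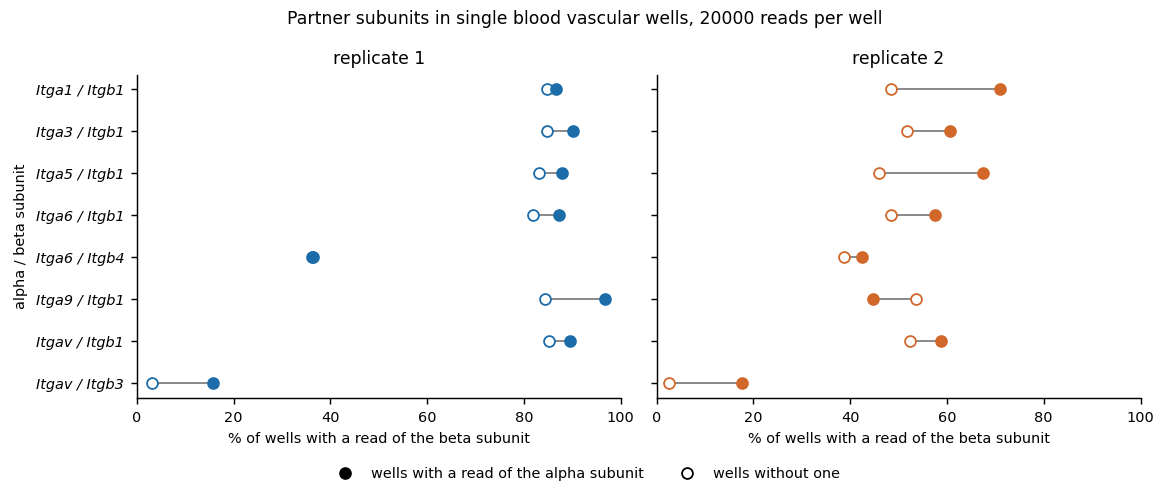
Share of BEC wells with a read of the beta subunit (0 to 100%, 20000 reads per well) among wells with a read of the alpha subunit (filled) and among the others (open), for the 8 known partner pairs in replicates 1 and 2. The *Itgav* and *Itgb3* pair is at 15.8% against 3.14% and at 17.6% against 2.53%, and the points of *Itga6* and *Itgb4* nearly coincide in replicate 1.

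Over the 10 sums, with log2(CPM + 1) centred within each replicate, the subunits most alike were *Itga9* and *Itgb3* (Pearson's r = 0.85), *Itga3* and *Itga5* (0.73), *Itga1* and *Itga6* (0.68) and *Itga9* and *Itgav* (0.68). The most opposed were *Itga5* and *Itgav* (-0.79) and *Itga1* and *Itgb4* (-0.72). The r of *Itgb1* with the other subunits ran from -0.42 (*Itgb3*) to 0.28 (*Itga3*). The protein-coding genes with the highest r were *Ehmt2* for *Itga1* (0.969), *Tcf3* for *Itga3* (0.981), *Slc39a10* for *Itga5* (0.976), *Snx19* for *Itga6* (0.960), *Ppm1g* for *Itga9* (0.975), *Slc25a28* for *Itgb1* (0.863) and *Dock6* for *Itgb4* (0.974). *Itgav* and *Itgb3* were below 10 CPM over BEC wells in both replicates and were not matched. Their r values with other subunits rest on the same low levels. *Itgb3* had no read in artery-like wells of replicate 1 and capillary-like wells of replicate 2, where *Itga9* had 1 read. With 10 points that share 2 pools and their plates, and 17542 genes searched, such values are descriptions only.

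Of the other 18 integrin subunits, 9 had enough counts to be tested. In mural-mixed wells *Itga7*, the laminin-binding subunit of muscle, rose by edgeR (0.952% of all genes). *Itga8*, a subunit known from smooth muscle, was called as well but met the low-count filter through the mural-mixed sums alone, so its call is given as a description. No other of the 9 passed the threshold of edgeR in any comparison. The Wald test of DESeq2 called *Itgb5* in mural-mixed wells (adjusted p = 0.0199, 4.21% of all genes), and *Itga7* in capillary-like wells against artery- and vein-like wells (adjusted p = 0.0217, 0.599% of all genes). The second call rests on single wells, since 1 well gave 56.1% of the capillary-like *Itga7* level of replicate 1 and 100% of that of replicate 2. *Itga7* was at 274 and 138 CPM in mural-mixed wells against 2.20 to 26.4 CPM in the 6 blood vascular sets, a log2 fold change of 5.15 (SE 0.79, adjusted p = 0.0153). *Itga8* was at 0.691 and 62.9 CPM in mural-mixed wells, the latter from 4 of 53 wells with 53.3% from 1 of them, and the blood vascular sets held 0 to 2 reads each, so that its fitted fold change (adjusted p = 0.0153) is no measure of size. Neither call held in each alternative: that of *Itga7* was lost at 300 CPM and on either plate alone, and that of *Itga8* at 300 CPM and by limma.

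Of 29 activators and adaptors that act on the inner side of integrins, 28 were tested, and by edgeR 1 passed the threshold in lymphatic wells (2.48% of all genes) and 0 in the other comparisons. DESeq2 called 5 of them in lymphatic wells (9.92% of all genes) and 1 in mural-mixed wells (4.21%), and limma 1 in each (3.22% and 1.52%). *Lims2*, also called PINCH2, which binds integrin-linked kinase, was lower in lymphatic wells: 29.1 and 17.7 CPM against 863 and 142 in artery-like, 1255 and 265 in capillary-like and 348 and 221 in vein-like wells (log2 fold change -3.65, SE 0.68, adjusted p = 0.0187). Its call was lost with gates at 10 CPM, where the clustering resolution also changed, on plate A alone and with classes from marker scores. Its relative *Lims1* had a fold change of 1.32 in the same comparison (SE 0.39, adjusted p = 0.137). *Tln1*, *Ilk* and *Fermt2*, which encode talin, integrin-linked kinase and kindlin-2, were at -0.36 (SE 0.45), -0.34 (SE 0.42) and 0.00 (SE 0.54).

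Of 24 integrin ligands, 21 were tested. By edgeR 1 rose and 2 fell in lymphatic wells (2.48% of all genes called) and 1 rose in mural-mixed wells (0.952%), while limma called 3 and 1 (3.22% and 1.52% of all genes). DESeq2 called 7 and 1 (9.92% and 4.21%). It also called *Fn1*, fibronectin, as higher in artery- than in vein-like wells (adjusted p = 1.40e-04, against 0.344 by edgeR), where it called 1.90% of all genes. In capillary-like wells it called *Npnt*, nephronectin (adjusted p = 0.00743, 0.599% of all genes). *Lama5*, the laminin alpha5 chain that alpha6 and alpha3 integrins bind, was at 18.7 and 33.3 CPM in lymphatic wells against 132 to 460 CPM in the blood vascular sets (log2 fold change -3.20, SE 0.46, adjusted p = 0.00511). *Vwf*, von Willebrand factor, fell by 4.69 on the log2 scale (SE 0.86, adjusted p = 0.0183), but it is also a vein marker that entered the naming of clusters.

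*Fn1*, the fibronectin that alpha5 binds, was at 904 and 292 CPM in lymphatic wells, with a log2 fold change of 4.03 (SE 0.62, adjusted p = 0.00753). Its groups overlapped, because artery-like wells were at 304 and 193 CPM and capillary-like wells of replicate 2 at 1934 CPM, of which 98.9% came from 1 well. Vein-like wells were at 7.33 and 5.72 CPM. *Vtn*, vitronectin, a ligand of alphav integrins, was at 772 and 432 CPM in mural-mixed wells and at 2.26 to 27.1 CPM in the blood vascular sets (log2 fold change 6.54, SE 0.93, adjusted p = 0.0117). The 10 mural markers summed to 6718 and 6933 CPM in the mural-mixed wells. The call of *Lama5* was lost with no replicate block and on plate A, that of *Vwf* and *Fn1* on plate B, that of *Fn1* also by limma, and that of *Vtn* with classes from marker scores.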

How the data were processed

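Smart-seq2 libraries of 4 plates, read as single 50-bp reads, were aligned by the authors to mm10 (tophat 2.1.1), duplicated reads were removed (samtools 0.1.18) and genes were counted with featureCounts (Subread 1.4.6-p5). What the authors deposited are raw read counts, with no normalization, and the annotation release is not given in the sources used here. Duplicate removal without molecular identifiers limits high counts of short genes. Of 46517 gene identifiers, 46005 matched a symbol of GENCODE vM21, and 92 spike-ins stayed out of all totals. Doublets were not called beyond the limit on genes per well.

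BEC wells were normalized with scran 1.30.0, reduced to 15 principal components of 1000 variable genes without integrins and clustered with leidenalg 0.10.2 (15 neighbours, resolution 0.8). The alternative with gates at 10 CPM was clustered at resolution 1.5. Clusters were named by the class with most markers at least 1.25 times higher than elsewhere, from at least 3 markers and 10 wells. Sums of raw counts per replicate and class entered edgeR 4.0.16 (quasi-likelihood test, TMM, 4 residual degrees of freedom) in R 4.3.3, and adjusted by Benjamini-Hochberg over 17542 genes. The replicate is a block because all sums of a replicate were drawn from 1 pool. Deviations of same-replicate sums correlated at -0.00252 to 0.156 (median 0.0765) over 10 pairs of classes.

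Alternatives were DESeq2 1.42.0 size factors and Wald test, a fit of all genes without a low-count filter, a fit with no block, limma 3.58.1 on log2(mean CPM + 1), blood vascular sums alone, gates at 10 and 300 CPM, single plates, single replicates, marker scores and thinned wells. Leaving out wells with keratinocyte, platelet or mural markers, vein-like cluster 2 alone and another gene length were added after seeing the data. The code was tested on simulated data. The members and lists were chosen with earlier results of these data known. Beside the 9 members, listed genes past the threshold with the same sign in both replicates were named, and the genes most like each member. *Lims1*, *Tln1*, *Ilk*, *Fermt2*, *Itgb5* and *Npnt* were named with their values known.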

Additional observations from a re-analysis of the deposited data

Results flagged for a closer look

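For each subunit and set of wells, the mean CPM per well of the 4 plates was searched for a plate far from the other 3 (Dixon's criterion, 95%). Of 54 sets, 7 (13%) held such a plate, and for independent, normally distributed values chance gives about 1 in 20. These sets are not independent, since the plates of a replicate share a pool and the set of all BEC wells holds the class sets, so that rate may not hold here. No explanation was tested.

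*Itga1* in lymphatic wells stood at 79.2 CPM on plate A of replicate 2, against 6.92, 9.14 and 11.9 on the other plates. *Itga5* in capillary-like wells was low on plate B of replicate 2, at 79.5 CPM, against 187 to 200. *Itga6* in mural-mixed wells was at 1124 CPM on plate B of replicate 2, against 121 to 206, and 1 well gave 87.6% of the level of that replicate.

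*Itga9* in artery-like wells was at 121 CPM on plate B of replicate 2, against 1.51 to 18.7. *Itgb3* in artery-like wells was at 93.2 CPM on plate A of replicate 2, against 0, 0 and 6.76, and in capillary-like wells at 9.03 CPM on plate B of replicate 1, against 0.0883, 0 and 0. *Itgb4* in lymphatic wells was at 580 CPM on plate B of replicate 1, which held 4 such wells, against 230 to 284.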

How the results depend on the processing

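Gates at 10 CPM came with a clustering resolution of 1.5 in place of 0.8, so their values in this section carry both changes. The count of genes past the threshold was sensitive to the fit. For artery-like against vein-like wells (1 gene) it was 333 by DESeq2's Wald test, 32 without the low-count filter, 65 with gates at 10 CPM, 3 on plate B and 9 in thinned wells. It was 0 with DESeq2 size factors, by limma, with blood vascular sums only, at 300 CPM, on plate A, without wells with keratinocyte or mural markers and with vein-like cluster 2 alone. For capillary-like wells (0 genes; 769 at an unadjusted p under 0.05) it was 105 by the Wald test, 6 without the filter, 51 at 10 CPM and 3 in thinned wells. For lymphatic wells (435) it was 1740, 778, 162 on plate A and 118 on plate B. For mural-mixed wells (167) it was 738, 596, 266 by limma, 354 at 10 CPM, 88 at 300 CPM, 77 and 57 on plates A and B, 47 with marker scores and 293 in thinned wells.

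With no replicate block the counts of genes were 1, 0, 469 and 250 in the 4 comparisons, and those of subunits 0, 0, 1 (*Itgav*) and 0. In lymphatic wells the count of subunits was also 3 by the Wald test (*Itga1*, *Itga9*, *Itgav*), 1 at 10 CPM (*Itga9*), 1 at 300 CPM (*Itgav*) and 2 in thinned wells (*Itga9*, *Itgav*). In mural-mixed wells it was 1 by the Wald test (*Itgav*) and 1 at 10 CPM (*Itga9*). Fits of a single replicate gave values with no test, and some of these had the other sign. For artery-like against vein-like wells these were *Itga5* -0.20, *Itga9* -1.37 and *Itgb3* -6.56 in replicate 1 and *Itgb1* -0.11 in replicate 2. For capillary-like wells they were *Itgb3* 2.02 in replicate 1 and *Itga6* -1.25 in replicate 2, and for mural-mixed wells *Itgb1* 0.25 in replicate 1 and *Itga9* 0.74 in replicate 2.

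Some log2 fold changes turned in sign under the other alternatives, none of them past the threshold in the fit with all sums. Those at 10 CPM cannot be put down to the gates alone, since the clustering resolution changed with them. For artery-like against vein-like wells, gates at 10 CPM gave *Itga1* -0.16, *Itga5* -2.82, *Itga9* -0.76, *Itgav* 0.10, *Itgb3* -0.67 and *Itgb4* 1.02, 300 CPM gave *Itga5* -0.66, plate A gave *Itga1* -0.98 and *Itga9* -4.03, and plate B gave *Itga5* -0.12 and *Itgb3* -2.96. Marker scores gave *Itga3* -0.57, *Itga5* -1.03, *Itga9* -0.52, *Itgav* 1.06 and *Itgb1* -0.06, limma gave *Itga9* -0.24 and *Itgb3* -0.65, leaving out wells with mural markers gave *Itga9* -1.76 and *Itgb3* -3.35, and cluster 2 alone gave *Itga9* -0.05. For capillary-like wells, 10 CPM gave *Itga5* 1.15, *Itga6* -0.21, *Itgav* 4.75 and *Itgb1* -0.21, 300 CPM gave *Itgav* 0.05, plate B gave *Itga5* 0.31, *Itga6* -0.61 and *Itgb3* 1.06, marker scores gave *Itgav* 0.96, limma gave *Itga6* -0.38 and *Itgb1* -0.02, and wells without mural markers gave *Itgb3* 0.06.

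For lymphatic wells, *Itga5* was 0.11 at 10 CPM, and *Itgb1* was -0.06 by limma, -0.10 on plate A and -0.11 in thinned wells. For mural-mixed wells, 10 CPM gave *Itga5* 0.04, *Itga6* 0.74 and *Itga9* 4.5, limma gave *Itga6* 0.47, plate A gave *Itga9* 0.43 and *Itgb3* -1.44, and wells without mural markers gave *Itga3* 0.04, *Itga9* 0.07 and *Itgb1* 0.02. *Itgb1* was also 0.06 at 300 CPM, 0.23 on plate B, 0.22 with marker scores and 0.01 in thinned wells. The causes were not tested. Replicate 1 at 10 CPM kept 2 artery-like, 3 capillary-like and 1 lymphatic wells, which stayed out of that fit, as did the 4 lymphatic wells of replicate 1 on plate B.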
